A study of Mus musculus with 10 samples.

Results

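Fatty acid oxidation, lipolysis and PPAR genes were described in ulcer tissue of db/db mice treated with Fu Huang ointment. The set held 41 genes listed by name for their place in the pathway, out of 55421 genes in the deposited table. The 10 libraries fell into 5 from ulcers given saline plus Fu Huang ointment and 5 from ulcers given saline. All animals were db/db mice, which lack a working long form of the leptin receptor and become obese and diabetic, and all wounds were made by surgical excision and treated for 7 days. Neither group held lean mice or unwounded skin, and the labels give neither age nor sex. The labels do not say that the 5 libraries of a group came from separate animals, so a p-value here speaks only of how much these samples scatter, and that scatter may be technical.

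A cell that burns fat first frees fatty acids from stored triglyceride with lipases, carries them on binding proteins and activates them to acyl-CoA. Carnitine then shuttles the acyl groups into mitochondria, where the beta-oxidation cycle shortens them to acetyl-CoA. Peroxisome proliferator-activated receptors (PPARs) bind fatty acids and, paired with a retinoid X receptor (RXR), switch on many genes of this route. In skin the route runs in dermal adipocytes, sebaceous glands and keratinocytes, and in a wound also in macrophages that arrive there.

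Pdk4 was the one member called different by edgeR, the main test, which called 0.692% of all genes higher and 0.983% lower. The call of Pdk4 held in 3 of the 10 fits that left out 1 library. Limma with voom called 0 members and DESeq2 called 7. Pdk4 encodes pyruvate dehydrogenase kinase, which blocks the entry of pyruvate into the citric acid cycle, and is a known PPAR target. Its fitted level was 3.10-fold higher in ointment ulcers. The 9 enzymes of the mitochondrial beta-oxidation cycle had 95% confidence intervals within a 2-fold change either way. So did 60% of the 40 tested members and 50.1% of all genes tested. None of the receptors Ppara, Ppard and Pparg was called. The lipases Pnpla2 and Lipe and the binding protein Fabp4 were 1.83 to 2.02 times as high in ointment ulcers by the fitted fold change but missed the threshold.

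Total estimated counts were 47807353 to 62896034 per ointment library and 58145331 to 62664018 per saline library. Libraries of 1 group correlated at r = 0.899 to 0.925 on log values across genes, and libraries of different groups at 0.868 to 0.916. Summed markers of keratinocytes, fibroblasts, endothelial cells, macrophages, neutrophils, sebocytes, muscle and adipocytes were above 0 in every library, so the tissue was a mixture. In such bulk samples, fewer cells of a type and less RNA per cell cannot be told apart.

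The promoter of Pdk4 is shown because Pdk4 was the member that passed the test. The RefSeq window lies at chr6:5496229-5496528 of GRCm38.p6 on the minus strand, is 60.7% G or C, and is printed with the bases from the annotated start onward in capitals.
Pdk4: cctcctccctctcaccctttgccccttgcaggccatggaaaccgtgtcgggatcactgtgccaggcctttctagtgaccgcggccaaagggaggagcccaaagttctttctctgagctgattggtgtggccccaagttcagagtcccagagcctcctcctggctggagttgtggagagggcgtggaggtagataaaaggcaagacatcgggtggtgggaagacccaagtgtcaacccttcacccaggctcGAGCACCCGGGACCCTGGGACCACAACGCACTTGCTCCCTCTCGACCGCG
PPAR and RXR pairs bind direct repeats of the core letters AGGTCA with 1 base between the copies. RefSeq gave promoter windows, from 250 bases before to 50 bases after a start, for 35 of the 41 members, 43 windows in all. The core AGGTCA stood on either strand in 10 of 43 member windows (23.3%), against 16.3% of all 32851 windows. The windows with the core belonged to 9 members, Acadm, Acadvl, Acsl6, Cpt1a, Echs1, Pparg, Rxra, Ucp1 and Ucp3. The strict repeat AGGTCANAGGTCA was in 0 of 43 member windows and in 0.0396% of all windows, and the looser AGGNCANAGGNCA, which includes the strict repeat, was in 0 of 43 and 0.381%. The absence of these letters from a window of this length says nothing about binding elsewhere.

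The core in the receptors themselves and in Cpt1a, the gate enzyme of mitochondrial entry, is shown in 30-base windows, with AGGTCA or its reverse complement in capitals. The windows are read on the gene's own strand, which is the plus strand for all 3 genes.
Rxra, chr2:27709193-27709222: tagaaatgggtgTGACCTgagtaatggtca
Rxra, chr2:27709232-27709261: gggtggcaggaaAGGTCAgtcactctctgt
Pparg, chr6:115361104-115361133: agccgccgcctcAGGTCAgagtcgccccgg
Pparg, chr6:115362328-115362357: agggacgcgaggAGGTCAagaaggggcctg
Cpt1a, chr19:3323195-3323224: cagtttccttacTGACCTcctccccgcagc
The cores began 87 and 48 bases before a start of Rxra, 28 and 9 bases before 2 starts of Pparg and 94 bases before a start of Cpt1a. None of these 3 genes was called different between the groups.

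Of the 41 members, 40 passed the low-count filter, and Ucp1 did not. Among the 40, edgeR's quasi-likelihood test with Benjamini-Hochberg adjustment over 18509 genes called 1 higher and 0 lower in ointment ulcers at an adjusted p below 0.05. Of all genes tested, 0.692% were called higher and 0.983% lower. At an unadjusted p below 0.05 the members counted 8 higher and 1 lower, together 22.5% of 40, against 17.1% of all genes. DESeq2 called 7 members higher and 0 lower, where of all genes it called 4.73% higher and 4.36% lower. Limma with voom called 0 members, where of all genes it called 0.816% higher and 1.11% lower. Shares and medians of the members are descriptions, and the set as a whole was not tested. Log2 fold changes were positive for 29 members and negative for 11, with a median of 0.11, against -0.0025 over all genes tested. The median size of the change was 0.24 in members and 0.28 in all genes. The groups did not overlap for 2 members, Pdk4 and Eci2, both with every ointment library above every saline library. That pattern held for 3.11% of all genes, the opposite pattern for 3.44% of all genes and for 0 members.

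**Figure D1:**
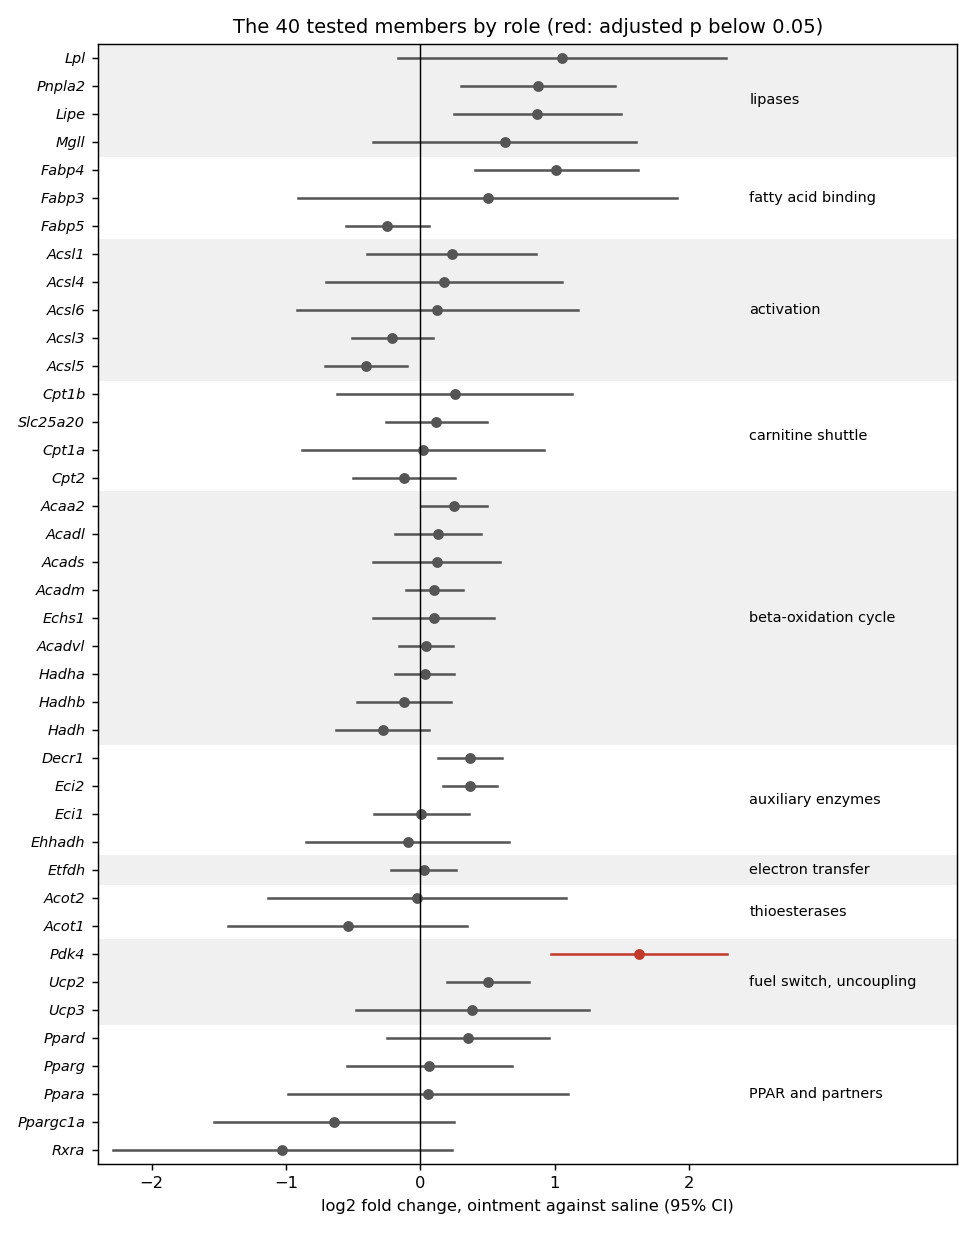
Log2 fold changes of the 40 tested members, ointment against saline, with 95% confidence intervals, in blocks by role. Pdk4, in red, is the one member with an adjusted p below 0.05, and the 9 beta-oxidation cycle genes lie close to 0 with intervals between -0.62 and 0.59.

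The 2 most abundant members were binding proteins, Fabp5 and Fabp4. Per kilobase of annotated exon, Fabp5 ranked first at 730 CPM per kb in ointment and 865 CPM per kb in saline ulcers, and Fabp4 second at 276 and 137 CPM per kb in ointment and saline ulcers. Acaa2, a thiolase of the last step of beta-oxidation, ranked next at 91.4 CPM per kb in ointment and 76.9 CPM per kb in saline ulcers. The least abundant were Ucp1, at 0.239 CPM per kb in ointment and 0.0834 CPM per kb in saline ulcers, and Ppara, at 0.250 and 0.240 CPM per kb in ointment and saline ulcers. Pdk4 stood 14th of 41 in ointment and 29th in saline ulcers, and Rxra 27th in ointment and 14th in saline ulcers.

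Lipases come first in the route. Pnpla2 encodes adipose triglyceride lipase, which removes the first fatty acid of a triglyceride. Pnpla2 stood at 145, 129.6, 70.5, 113 and 128 CPM in ointment libraries 1 to 5 and at 43.8, 52.9, 103, 57.7 and 61.2 CPM in saline libraries 1 to 5. Ointment 3 was the lowest ointment library and lay below saline 3, the highest saline library, so the groups overlapped. For Pnpla2 this gave a log2 fold change of 0.88 ± 0.26 (SE; 95% confidence interval 0.30 to 1.45), short of a call at edgeR's adjusted p = 0.119. Lipe, hormone-sensitive lipase, takes the next fatty acid. Lipe stood at 91.7, 102, 47.1, 83.6 and 83.2 CPM in ointment libraries 1 to 5 and at 33.9, 36.9, 77.6, 40.2 and 33.8 CPM in saline libraries 1 to 5. The same 2 libraries, ointment 3 and saline 3, crossed. Lipe had a log2 fold change of 0.87 ± 0.28 (SE; 95% confidence interval 0.25 to 1.496; edgeR's adjusted p = 0.145) and was not called. Mgll, monoacylglycerol lipase, frees the last one. Mgll stood at 200, 178, 112, 195 and 152 CPM in ointment libraries 1 to 5 and at 47.5, 152, 179, 131 and 31.5 CPM in saline libraries 1 to 5. The groups overlapped, and saline 1 and saline 5 were the low libraries. The log2 fold change of Mgll was 0.63 ± 0.44 (SE; 95% confidence interval -0.35 to 1.61), and edgeR's adjusted p = 0.535 missed the threshold. Lpl, lipoprotein lipase, works outside cells on circulating triglyceride. Lpl stood at 862, 636, 688, 959.7 and 145 CPM in ointment libraries 1 to 5 and at 291, 73.4, 546, 359 and 315 CPM in saline libraries 1 to 5. Ointment 5 was low among the ointment libraries and saline 2 among the saline libraries. For Lpl this gave a log2 fold change of 1.05 ± 0.55 (SE; 95% confidence interval -0.16 to 2.27), short of a call at edgeR's adjusted p = 0.369. All 4 lipases had positive fold changes under every scaling tried, and 0 of 4 passed the test in edgeR or limma. At an unadjusted edgeR p below 0.05 stood 2 of them, Pnpla2 and Lipe, and DESeq2 called the same 2.

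Fatty acid binding proteins carry the freed acids. Fabp4 is the form of adipocytes and macrophages. Fabp4 stood at 1506, 1502, 843, 1181 and 1162 CPM in ointment libraries 1 to 5 and at 391.6, 454, 1021, 523 and 677 CPM in saline libraries 1 to 5. Ointment libraries were higher except that ointment 3 lay below saline 3. Fabp4 had a log2 fold change of 1.01 ± 0.27 (SE; 95% confidence interval 0.41 to 1.62; edgeR's adjusted p = 0.0938) and was not called. Fabp5 is the epidermal form and was the more abundant one. Fabp5 stood at 2364, 3250, 2560, 2289 and 2553 CPM in ointment libraries 1 to 5 and at 3830, 2643, 2672, 3345 and 2935 CPM in saline libraries 1 to 5. The groups overlapped, with ointment 2 well above the other ointment libraries. The log2 fold change of Fabp5 was -0.24 ± 0.14 (SE; 95% confidence interval -0.56 to 0.07), and edgeR's adjusted p = 0.421 missed the threshold. Fabp3, the heart and muscle form, ranged between 5.28 and 72.4 CPM in ointment and between 9.82 and 31.6 CPM in saline ulcers. Its log2 fold change was 0.50 ± 0.63 (SE). Fabp3 shares 37.3% of its 31-base stretches with other genes, most of all Fabp3-ps1, so its counts are uncertain.

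**Figure D2:**
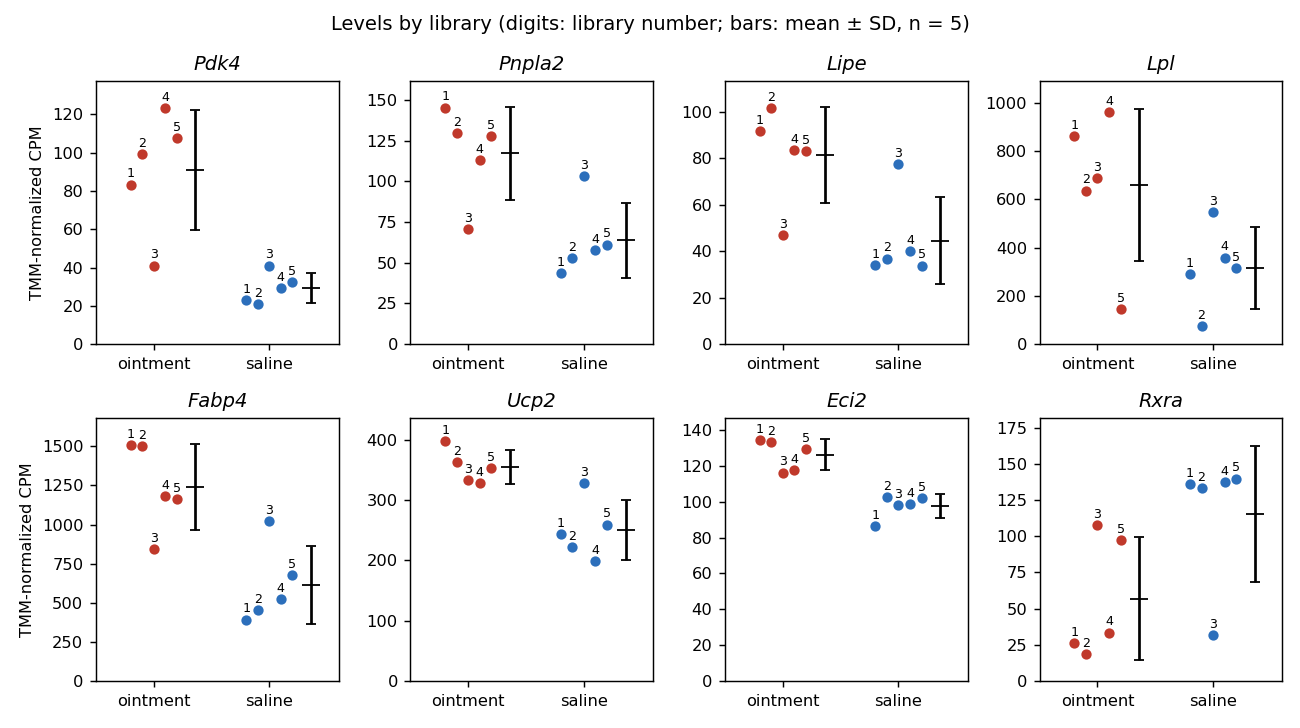
TMM-normalized CPM of 8 members in each library, ointment left of saline, with library numbers on the points and the mean ± SD (n = 5) beside them. Pdk4 and Eci2 do not overlap, saline 3 is the highest saline library for Pdk4, Pnpla2, Lipe, Lpl, Fabp4 and Ucp2, and Rxra sits at 2 separate levels within each group.

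Marker levels of other cell types are given beside these genes. The 12 white adipocyte markers, a list that includes Lipe, summed to 415 to 677 CPM in ointment and 457 to 1419 CPM in saline ulcers, with saline 3 at the top. Of the 12, edgeR called 1 higher, 1 lower and 10 neither, and none was at 0 in any library. At an unadjusted p below 0.05 were 4 higher and 3 lower, and DESeq2 called 3 higher and 2 lower. Lep, the hormone leptin, was higher in ointment ulcers by 4.16 on the log2 scale (edgeR's adjusted p = 0.0347). Cfd, adipsin, was lower, at a log2 fold change of -2.80 (adjusted p = 0.0384). These 2 markers of 1 cell type went opposite ways, and of the 10 fits that left out 1 library Lep was called in 2, those without ointment 2 or 4, and Cfd in 1, that without ointment 2. The 12 macrophage markers summed to 7534 to 10550 CPM in ointment and 3618 to 6064 CPM in saline ulcers without overlap. All 12 had positive fold changes, 2 were called higher, and none was at 0 in a library. The 10 neutrophil markers summed to 1689 to 7824 CPM in ointment and 852 to 2729 CPM in saline ulcers. All 10 had positive fold changes, with 0 called by edgeR, 9 at an unadjusted p below 0.05 and 7 called by DESeq2, and Camp and Ngp were at 0 in saline 1. The 9 endothelial markers summed to 430 to 669 CPM in ointment and 670 to 942 CPM in saline ulcers. All 9 had negative fold changes, with 0 called by edgeR, 4 at an unadjusted p below 0.05 and 1 called by DESeq2, and Cldn5 was at 0 in ointment 1 and 2. The 11 keratinocyte markers summed to 16540 to 30370 CPM in ointment and 21510 to 30420 CPM in saline ulcers, with 10 of 11 fold changes negative, 0 called by edgeR, 4 at an unadjusted p below 0.05, 3 called by DESeq2 and none at 0 in a library. The 13 sebocyte markers summed to 918 to 1577 CPM in ointment and 1198 to 2370 CPM in saline ulcers. Their fold changes were positive for 6 and negative for 7. EdgeR called 1 lower, Krt79, at a log2 fold change of -1.52 (adjusted p = 0.034). At an unadjusted p below 0.05 stood 1 higher and 3 lower. The 7 fibroblast markers summed to 18000 to 58870 CPM in ointment and 35890 to 54590 CPM in saline ulcers. Of these, 6 had negative fold changes, and edgeR called 0. Each sum leans on its most abundant markers. Lyz2, of the macrophage list, averaged 4552 CPM in ointment and 2255 CPM in saline ulcers. In the neutrophil list, S100a8 averaged 1444 and 603 CPM and S100a9 1898 and 809 CPM in ointment and saline ulcers. Cfd, of the white adipocyte list, stood at 734 CPM in saline 3. The part of any of these cell types in the levels of the members was not tested.

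**Figure D3:**
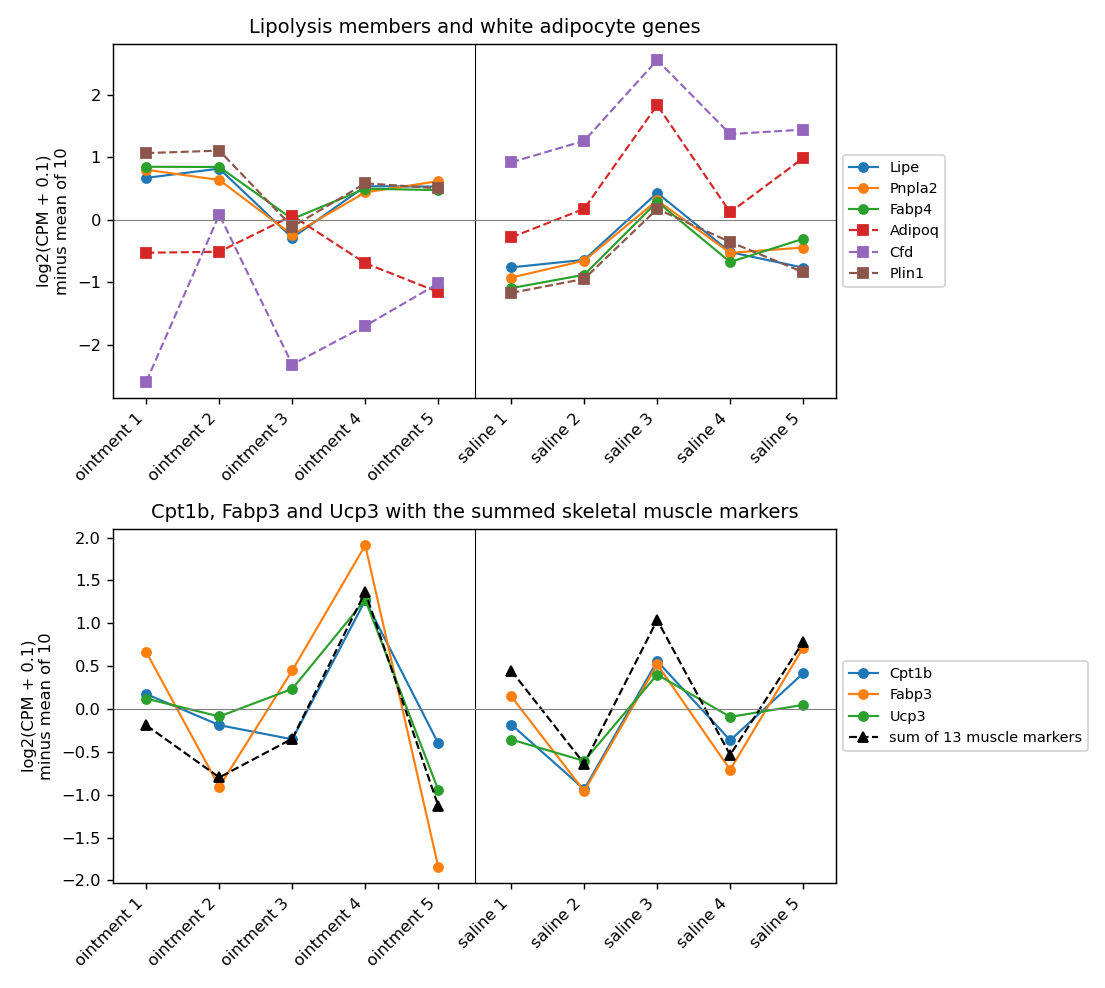
Log2(CPM + 0.1) minus the gene's mean over 10 libraries, ointment left of saline, for Lipe, Pnpla2 and Fabp4 with 3 white adipocyte genes (upper plot) and for Cpt1b, Fabp3 and Ucp3 with the sum of 13 muscle markers (lower plot). Lipe, Pnpla2, Fabp4 and Plin1 are lower in ointment 3 than in the other ointment libraries. Among ointment libraries, Adipoq is instead highest in ointment 3, and Cfd is lowest in ointment 1. Adipoq (-1.29) and Cfd (-2.80) had negative log2 fold changes between the groups, while Lipe, Pnpla2, Fabp4 and Plin1 had positive ones. All 6 genes of the upper plot peak, among saline libraries, in saline 3. The genes and the sum of the lower plot are highest in ointment 4, at 7936 CPM for the sum. The lines join libraries of 1 group for legibility and imply no order, and the genes shown were chosen after their values were seen.

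Acyl-CoA synthetases activate the acids. Acsl5, a form of mitochondria and endoplasmic reticulum, was the member with the smallest p among those lower in ointment ulcers. Acsl5 stood at 196, 263, 223, 222 and 186 CPM in ointment libraries 1 to 5 and at 319.7, 255, 352, 264 and 251 CPM in saline libraries 1 to 5. The groups overlapped in the range of 251 to 263 CPM. For Acsl5 this gave a log2 fold change of -0.40 ± 0.14 (SE; 95% confidence interval -0.71 to -0.10), short of a call at edgeR's adjusted p = 0.164. Acsl3 acts at lipid droplets. Acsl3 stood at 26.1, 32.3, 25.2, 31.5 and 22.6 CPM in ointment libraries 1 to 5 and at 29.9, 32.5, 27.0, 32.0 and 37.5 CPM in saline libraries 1 to 5. Acsl3 had a log2 fold change of -0.21 ± 0.14 (SE; 95% confidence interval -0.51 to 0.09; edgeR's adjusted p = 0.498) and was not called. Acsl1, Acsl4 and Acsl6 had log2 fold changes of 0.23, 0.18 and 0.13, each with a confidence interval that spanned 0.

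Of the 4 genes of the carnitine shuttle, edgeR and DESeq2 called 0, and 0 had an unadjusted p below 0.05. Cpt1a is the outer-membrane enzyme of liver and most tissues and sets the pace of entry. Cpt1a stood at 85.3, 137, 29.8, 49.0 and 131 CPM in ointment libraries 1 to 5 and at 81.4, 69.2, 122, 53.8 and 99.8 CPM in saline libraries 1 to 5. Ointment libraries held both the highest and the lowest values of all 10. The log2 fold change of Cpt1a was 0.02 ± 0.41 (SE; 95% confidence interval -0.88 to 0.92), and edgeR's adjusted p = 0.991 missed the threshold. Cpt1b is the muscle form. Cpt1b stood at 15.2, 11.8, 10.5, 32.6 and 10.2 CPM in ointment libraries 1 to 5 and at 11.9, 6.99, 19.9, 10.4 and 18.0 CPM in saline libraries 1 to 5. Ointment 4 stood apart at 32.6 CPM. For Cpt1b this gave a log2 fold change of 0.26 ± 0.39 (SE; 95% confidence interval -0.62 to 1.13), short of a call at edgeR's adjusted p = 0.82. Cpt1b shares 79.7% of its 31-base stretches with other genes, most of all the overlapping gene Gm44502. Most of its sequence thus cannot be told from other genes, and its counts are uncertain. The 13 skeletal muscle markers summed to 1409 to 7936 CPM in ointment and 1981 to 6329 CPM in saline ulcers, with 2 of 13 fold changes positive, 0 called by edgeR or DESeq2, 0 with an unadjusted p below 0.05, and none at 0 in a library. Ointment 4 held the highest muscle sum and the highest Cpt1b, Fabp3 and Ucp3 of all libraries, and the part of muscle in those levels was not tested. Cpt2, the inner-membrane enzyme, and the carrier Slc25a20 had log2 fold changes of -0.12 ± 0.17 and 0.12 ± 0.17 (SE).

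The 9 enzymes of the beta-oxidation cycle were measured at similar levels in both groups. Their summed CPM was 962 to 1159 in ointment and 941 to 1147 in saline ulcers. EdgeR, DESeq2 and limma called 0 of 9 each, and 1, Acaa2, had an unadjusted edgeR p below 0.05. The confidence intervals of all 9 lay between -0.62 and 0.59 on the log2 scale, each within a 2-fold change either way. Intervals within that bound were common, at 50.1% of all genes tested. Fold changes were positive for 7 and negative for Hadh and Hadhb, although Acadvl and Hadha turned negative with library sizes alone as the scaling. Acaa2, a thiolase of medium and long chains, had the smallest p of them. Acaa2 stood at 160.0, 123, 122, 139 and 149 CPM in ointment libraries 1 to 5 and at 126, 101, 124, 109.8 and 122 CPM in saline libraries 1 to 5. Ointment 1 was highest and saline 2 lowest, and the groups overlapped. Acaa2 had a log2 fold change of 0.25 ± 0.11 (SE; 95% confidence interval 0.0026 to 0.50; edgeR's adjusted p = 0.286) and was not called. Hadh oxidizes the hydroxyl group of shorter chains. Hadh stood at 102, 118, 81.7, 117 and 84.9 CPM in ointment libraries 1 to 5 and at 126, 103, 157, 119 and 107 CPM in saline libraries 1 to 5. Saline 3 was the highest library. The log2 fold change of Hadh was -0.28 ± 0.15 (SE; 95% confidence interval -0.62 to 0.07), and edgeR's adjusted p = 0.406 missed the threshold. The very-long-chain dehydrogenase Acadvl averaged 135 ± 4.61 CPM in ointment and 131 ± 12.6 CPM in saline ulcers (SD, n = 5 each). The long-chain form Acadl, the medium-chain form Acadm and the short-chain form Acads had log2 fold changes of 0.13, 0.11 and 0.12. The trifunctional protein subunits Hadha and Hadhb had log2 fold changes of 0.03 and -0.12, and the hydratase Echs1 one of 0.10. Hadhb shares 23.3% of its 31-base stretches with other genes, most of all Gm13910, so its counts are uncertain.

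Auxiliary enzymes deal with unsaturated chains. Eci2 encodes an enoyl-CoA isomerase of peroxisomes and mitochondria, which moves double bonds into the position the cycle can use. Eci2 stood at 134, 133, 116, 118 and 129 CPM in ointment libraries 1 to 5 and at 86.6, 102, 98.0, 98.7 and 102 CPM in saline libraries 1 to 5. Every ointment library lay above every saline library, by a small margin. For Eci2 this gave a log2 fold change of 0.37 ± 0.09 (SE; 95% confidence interval 0.17 to 0.57), short of a call at edgeR's adjusted p = 0.0707. Eci2 shares 13.6% of its 31-base stretches with other genes, most of all Eci3. Decr1, the mitochondrial dienoyl-CoA reductase, serves the same acids. Decr1 stood at 78.0, 66.2, 68.7, 77.7 and 73.0 CPM in ointment libraries 1 to 5 and at 50.6, 51.8, 66.3, 51.5 and 60.9 CPM in saline libraries 1 to 5. The lowest ointment library, at 66.2 CPM, met the highest saline library, at 66.3 CPM. Decr1 had a log2 fold change of 0.37 ± 0.11 (SE; 95% confidence interval 0.13 to 0.61; edgeR's adjusted p = 0.114) and was not called. DESeq2 called both, with adjusted p = 0.000437 for Eci2 and 0.0122 for Decr1. Eci1, the other mitochondrial isomerase, had a log2 fold change of 0.01 ± 0.16 (SE), which turned negative with library sizes alone and with upper-quartile scaling. Ehhadh, the bifunctional enzyme of peroxisomes, had one of -0.09 ± 0.34 (SE).

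Etfdh passes the electrons of beta-oxidation to the respiratory chain, and its log2 fold change was 0.03 ± 0.11 (SE), turning negative with library sizes alone and with upper-quartile scaling. The thioesterases Acot1, in the cytosol, and Acot2, in mitochondria, undo activation. Acot1 ranged from 13.8 to 23.7 CPM in ointment and from 10.1 to 45.8 CPM in saline ulcers, and Acot2 from 4.73 to 10.7 CPM in ointment and from 1.26 to 14.4 CPM in saline ulcers. Their log2 fold changes were -0.54 ± 0.40 and -0.02 ± 0.50 (SE). Both lie side by side in the genome and share sequence. Of the 31-base stretches of Acot2, 37.3% are found in other genes, most of all Acot1, so the counts of both are uncertain.

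The fuel switch held the one call, Pdk4 (ENSMUSG00000019577), on the minus strand of chr6:5483351-5496309 (GRCm38). Pdk4 stood at 83.3, 99.3, 41.04, 123 and 108 CPM in ointment libraries 1 to 5 and at 23.0, 21.0, 41.01, 29.3 and 32.5 CPM in saline libraries 1 to 5. Ointment 3 was low for its group and saline 3 high for its group, at 41.04 and 41.01 CPM, so the groups all but touched. Pdk4 averaged 90.9 ± 31.4 CPM in ointment and 29.4 ± 7.998 CPM in saline ulcers (SD, n = 5 each). Its log2 fold change was 1.63 ± 0.29 (SE), with a 95% confidence interval of 0.98 to 2.29 and edgeR's adjusted p = 0.0298. Each of the 10 fits that left out 1 library gave a log2 fold change between 1.51 and 1.82, but Pdk4 passed the threshold in 3 of them, without ointment 3, ointment 4 or saline 3. Limma with voom gave an adjusted p = 0.0574 at a log2 fold change of 1.45. The edgeR adjusted p reached 0.0749 in the other 7, which left out ointment 1, 2 or 5 or saline 1, 2, 4 or 5.

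Uncoupling proteins carry protons or metabolites across the inner membrane. Ucp2 is the widely expressed form and is strong in macrophages. Ucp2 stood at 398, 363, 334, 328 and 352 CPM in ointment libraries 1 to 5 and at 244, 222, 328, 198 and 259 CPM in saline libraries 1 to 5. All but saline 3 among the saline libraries lay below every ointment library. The log2 fold change of Ucp2 was 0.50 ± 0.14 (SE; 95% confidence interval 0.20 to 0.81), and edgeR's adjusted p = 0.0989 missed the threshold. Ucp3, the muscle form, ranged from 1.76 to 8.56 CPM in ointment and from 2.25 to 4.63 CPM in saline ulcers. Ucp1, which makes heat in brown fat, did not pass the filter. It had 0, 47, 6, 8 and 44 estimated counts in the ointment libraries and 12, 20, 0, 6 and 4 in the saline libraries, so no difference could be read at this depth. The 8 brown adipocyte markers, which include Ucp1 and Ppargc1a, summed to 87.0 to 158 CPM in ointment and 68.4 to 311 CPM in saline ulcers, and of the 7 tested 0 were called by edgeR or DESeq2 and 0 had an unadjusted p below 0.05.

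Of the 5 PPAR receptors and partners, edgeR and DESeq2 called 0, and 0 had an unadjusted p below 0.05. Ppara stood at 1.02, 1.16, 0.974, 0.412 and 1.23 CPM in ointment libraries 1 to 5 and at 0.749, 0.370, 1.70, 1.28 and 0.496 CPM in saline libraries 1 to 5. Ppara, the receptor that drives hepatic fatty acid oxidation, was low in every library, at 1.70 CPM or less. For Ppara this gave a log2 fold change of 0.06 ± 0.47 (SE; 95% confidence interval -0.98 to 1.10), short of a call at edgeR's adjusted p = 0.971. That fold change turned negative with library sizes alone. Ppard is the broadly expressed receptor of skin and muscle. Ppard stood at 37.0, 46.4, 41.6, 25.7 and 56.8 CPM in ointment libraries 1 to 5 and at 35.99, 38.8, 35.0, 36.6 and 15.7 CPM in saline libraries 1 to 5. The groups overlapped, and saline 5 was the lowest library. Ppard had a log2 fold change of 0.36 ± 0.27 (SE; 95% confidence interval -0.25 to 0.96; edgeR's adjusted p = 0.578) and was not called. Pparg directs adipocyte and sebocyte formation. Pparg stood at 27.0, 49.4, 27.0, 25.3 and 27.3 CPM in ointment libraries 1 to 5 and at 27.6, 21.2, 47.5, 32.5 and 20.1 CPM in saline libraries 1 to 5. Ointment 2 and saline 3 stood above the rest. The log2 fold change of Pparg was 0.07 ± 0.28 (SE; 95% confidence interval -0.55 to 0.68), and edgeR's adjusted p = 0.943 missed the threshold. Ppargc1a, a coactivator that raises mitochondrial number, was low throughout. Ppargc1a stood at 2.04, 2.09, 1.95, 4.62 and 0.833 CPM in ointment libraries 1 to 5 and at 4.34, 2.64, 4.001, 2.66 and 4.39 CPM in saline libraries 1 to 5. Ointment 5 was the lowest and ointment 4 the highest of all 10. For Ppargc1a this gave a log2 fold change of -0.64 ± 0.40 (SE; 95% confidence interval -1.54 to 0.25), short of a call at edgeR's adjusted p = 0.478.

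Rxra encodes the RXR partner of the PPARs and was the most divided member. Rxra stood at 26.2, 18.5, 108, 33.3 and 97.6 CPM in ointment libraries 1 to 5 and at 136, 133, 31.5, 137 and 139.9 CPM in saline libraries 1 to 5. The values fell at 2 levels, 18.5 to 33.3 CPM in ointment 1, 2 and 4 and saline 3, and 97.6 to 140 CPM in ointment 3 and 5 and the other 4 saline libraries. No library lay between. Rxra had a log2 fold change of -1.03 ± 0.57 (SE; 95% confidence interval -2.29 to 0.24; edgeR's adjusted p = 0.403) and was not called. Saline 3 and ointment 3, the libraries that crossed for Pnpla2 and Lipe, were on the other side from most of their group here too, as was ointment 5.

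**Figure D4:**
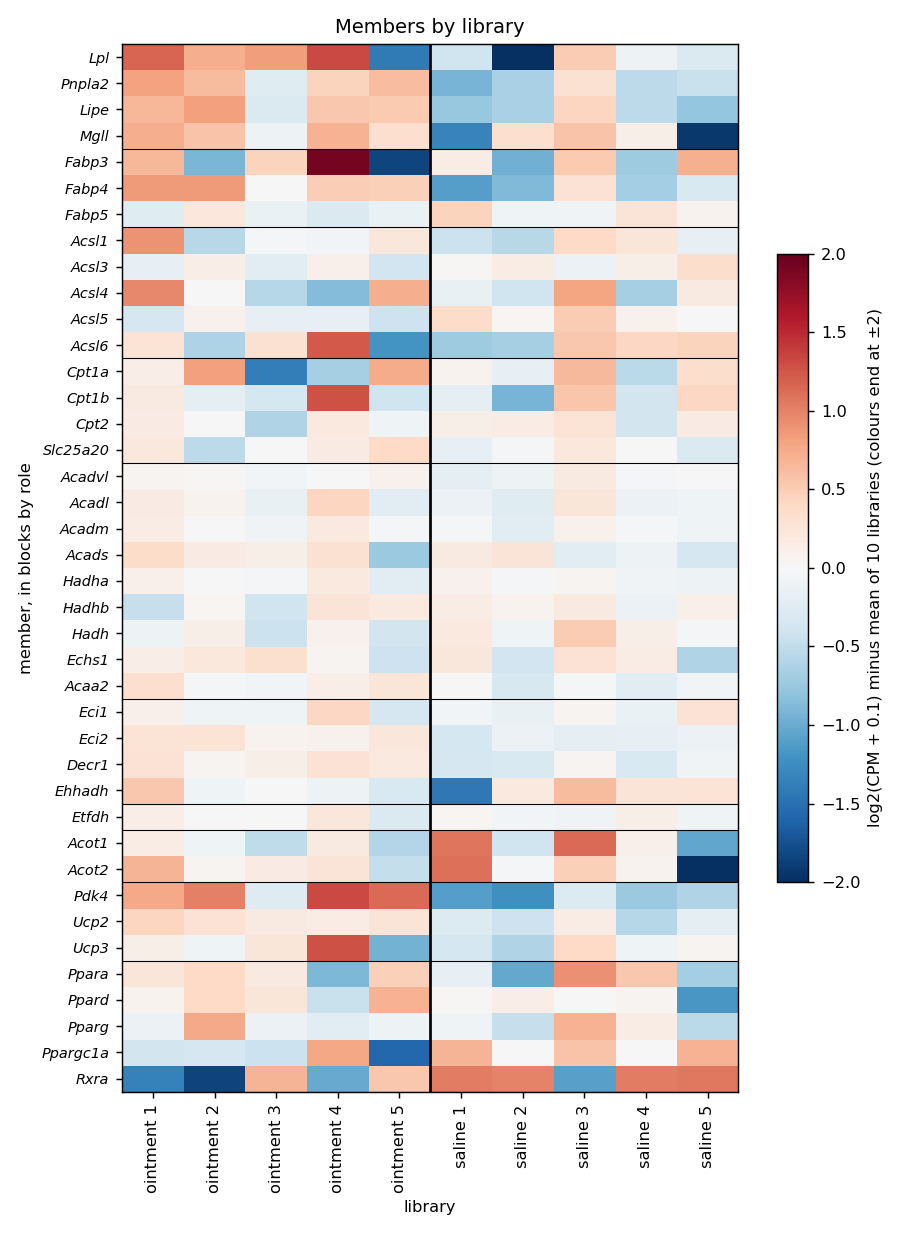
Log2(CPM + 0.1) of the 40 tested members in 10 libraries, as the difference from each gene's mean, ointment left of saline, in blocks by role from the lipases at the top to the PPARs and partners at the bottom. Saline 3 is redder than the other saline libraries, being the highest of them for 27 of 40 members, and the beta-oxidation block is pale throughout.

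Some libraries stood apart across the set. Saline 3 was the highest saline library for 27 of 40 members (67.5%), against 20.3% of all genes. Ointment 4 was the highest ointment library for 15 members (37.5%, against 23.1% of all genes) and ointment 1 for 12 (30%, against 19.7%). Ointment 5 was the lowest ointment library for 17 (42.5%, against 23.5%) and ointment 3 for 12 (30%, against 16%). Saline 2 was the lowest saline library for 14 (35%, against 20%) and saline 5 for 12 (30%, against 18.6%). Without saline 3, edgeR called 3 members higher: Pdk4 (log2 fold change 1.77, adjusted p = 0.0440), Fabp4 (1.27, adjusted p = 0.0440) and Lipe (1.16, adjusted p = 0.0481). That fit called 0.344% of all genes higher and 0.412% lower. Without ointment 3 it called Pdk4 alone among members, at 1.82 (adjusted p = 0.0162), and 0.248% of all genes higher and 0.29% lower. Spread within groups was ordinary for these libraries, with a median coefficient of variation of 23.4% in ointment and 26.5% in saline ulcers for members, against 29.5% and 27.3% over all genes in ointment and saline ulcers.

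Other genes of the pathway, in 6 lists, gave 4 calls. Of all genes tested, 0.692% were called higher and 0.983% lower. The lists were chosen with earlier results of these data known and were not tested as sets. Among 18 tested regulators of lipases, Angptl4 was called higher by edgeR and 17 were not called. Angptl4, a secreted inhibitor of lipoprotein lipase and a known PPAR target, averaged 323 ± 52.6 CPM in ointment and 152 ± 39.0 CPM in saline ulcers (SD, n = 5 each). Its log2 fold change was 1.08 ± 0.20 (SE; edgeR's adjusted p = 0.0305), and it was called in 3 of the 10 fits without 1 library, those without ointment 4, saline 1 or saline 2. Of 9 tested genes of fatty acid binding and import, Fabp7 was called higher, Slc27a3 lower and 7 neither. Fabp7, the brain form, was low, at 4.57 ± 1.65 CPM in ointment and 0.931 ± 0.337 CPM in saline ulcers, with a log2 fold change of 2.29 ± 0.36 (SE; edgeR's adjusted p = 0.0168) and a call in all 10 such fits. Slc27a3, an acyl-CoA synthetase of the import family, averaged 11.6 ± 1.47 CPM in ointment and 21.1 ± 3.33 CPM in saline ulcers, at -0.86 ± 0.15 (SE; adjusted p = 0.0233), and was called in 3 of 10, those without ointment 1, ointment 4 or saline 5. Of 7 ketone body genes, Oxct1 was called lower and 6 were not called. Oxct1, which lets cells outside the liver use ketone bodies, averaged 224 ± 25.2 CPM in ointment and 330 ± 30.5 CPM in saline ulcers. Its log2 fold change was -0.56 ± 0.11 (SE; edgeR's adjusted p = 0.0343), and it was called in 2 of 10, those without ointment 2 or saline 5.

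The remaining 3 lists had 0 calls by edgeR, with 2, 2 and 1 genes at an unadjusted p below 0.05 and 1, 2 and 1 calls by DESeq2 in the order given. Among 18 other genes of mitochondrial oxidation the smallest p belonged to Acad9, an assembly factor of respiratory complex I, at a log2 fold change of -0.71 (adjusted p = 0.0604). Among 18 peroxisomal genes it belonged to Abcd3, an importer of fatty acids into peroxisomes, at -0.47 (adjusted p = 0.0717). Among 18 further PPAR partners and genes of the pyruvate dehydrogenase switch it belonged to Pdp2, the phosphatase that opposes the kinases, at -0.40 (adjusted p = 0.145).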

How the data were processed

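RNA was read in 5 ointment and 5 saline libraries. The authors deposited 1 table of estimated counts per gene, whole numbers not scaled to depth. Values of 4 (9202 times) were more frequent than 3 (4235) or 5 (5804), so the values were treated as estimates, not single reads, and were given to edgeR as they stand. Per the submitters' processing notes, reads were placed on GRCm38, also called mm10. Aligner, counter, annotation and strand setting were not given in the sources used here, so genes that overlap another annotated gene (21 of 41 members) or share sequence may hold its reads.

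Genes passing filterByExpr (minimum count 10, minimum total 15) were fitted with edgeR 4.0.16 (R 4.3.3) by the robust quasi-likelihood F-test on TMM-scaled counts, with group as the only term and Benjamini-Hochberg adjustment over 18509 genes. CPM are TMM-normalized. DESeq2 1.42.0, limma 3.58.1 (voom), other scalings and leaving out each library were alternatives. Promoters came from RefSeq (GRCm38.p6), exon lengths and shared 31-base stretches from GENCODE M21. The members and lists were chosen with earlier results of these data known. Values per library are given for members past the threshold and those with the next smallest p, up to 16, and for 12 genes chosen as landmarks of the route. Precision is limited by the 5 libraries per group and, for Ucp1, by depth.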

Additional observations from a re-analysis of the deposited data

Results flagged for a closer look

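Of 80 sets of 5 libraries (40 tested members in 2 groups), 8 held 1 library far from the other 4. Far means a gap to the nearest library above 0.71 of the range of the group, Dixon's cutoff for 5 values. Members in 1 library are not independent and the share over all genes was not computed, so the 8 are a description. In the ointment group, Cpt1b stood at 32.6 CPM in ointment 4, against 10.2 to 15.2 CPM in the others. Pparg was at 49.4 CPM in ointment 2, against 25.3 to 27.3 CPM, and Fabp5 at 3250 CPM in ointment 2, against 2289 to 2560 CPM. In the saline group, saline 3 stood apart for 3 genes. Lipe was at 77.6 CPM there, against 33.8 to 40.2 CPM in the others, Acadl at 113 CPM, against 80.9 to 89.5 CPM, and Rxra at 31.5 CPM, against 133 to 140 CPM. Eci2 was at 86.6 CPM in saline 1, against 98.0 to 102 CPM, and Ppard at 15.7 CPM in saline 5, against 35.0 to 38.8 CPM.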

How the results depend on the processing

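The count of genes called, 310 by edgeR, was 212 to 357 under other scalings, without the filter, with voom, without robust dispersions and with values divided by 4, but 1677 with DESeq2, 0 with the replicate block (2602 at an unadjusted p below 0.05) and 102 to 422 with 1 library left out. Members called were 7 with DESeq2, 0 with voom and 0 with the block (8 each at an unadjusted p below 0.05), and 0 to 3 with 1 library left out. Pdk4 had adjusted p = 0.0574 with voom. Same-numbered libraries did not deviate together (r = -0.077 to 0.056, and 1 of 5 correlated best with its own number). The labels state no pairing, and these correlations cannot show that the replicate numbers carry none. Of 360 member values under other settings, 338 kept direction and call, as did 355 of 400 with 1 library left out. Of the 40 tested members, 39 had no call in the main fit to lose, so these counts say little about calls. The 1 call, Pdk4, was kept in 3 of the 10 fits with 1 library left out. Fold changes near 0 changed sign. With ointment 4 left out, so did larger ones, Fabp3 (0.50 in the main fit), Ucp3 (0.39) and Cpt1b (0.26). Library sizes alone gave Cpt1a -0.051, Acadvl -0.016, Hadha -0.020, Eci1 -0.037, Etfdh -0.026 and Ppara -0.023 on the log2 scale. Upper-quartile scaling gave Cpt1a -0.019, Eci1 -0.018 and Etfdh -0.00041, voom gave Cpt1a -0.28 and Acot2 0.41, and the block gave Cpt1a -0.11, Eci1 -0.0028 and Acot2 0.26. With 1 library left out, log2 fold changes crossed 0 for Acadvl (-0.0054 to 0.084), Acot2 (-0.30 to 0.32), Acsl1 (-0.023 to 0.37), Acsl4 (-0.10 to 0.43), Acsl6 (-0.28 to 0.34), Cpt1a (-0.21 to 0.24), Cpt1b (-0.16 to 0.43), Echs1 (-0.016 to 0.20), Eci1 (-0.10 to 0.088), Ehhadh (-0.33 to 0.057), Etfdh (-0.017 to 0.094), Fabp3 (-0.16 to 0.77), Hadha (-0.0032 to 0.084), Ppara (-0.13 to 0.39), Pparg (-0.16 to 0.29) and Ucp3 (-0.010 to 0.59). The cause of these changes was not tested.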
